A study of Mus musculus with 6 samples.

Results

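Collagens, laminins and integrins are the ropes, sheets and receptors of the extracellular matrix. They were taken from the arrays by gene symbol: the collagen chains (Col, a number, a, a number), the laminin chains (Lama, Lamb or Lamc with a number) and the genes whose symbol starts with Itga or Itgb, leaving out the microglial marker Itgam. This gave 84 of the 19937 genes measured, made up of 44 collagens, 10 laminins and 30 integrin genes. Of the 30, 25 encode integrin subunits (17 alpha and 8 beta) and 5 (Itgb1bp1, Itgb1bp2, Itgb3bp, Itgbl1 and Itgb2l) are integrin-named genes that are not counted as subunits here. Membership followed from the symbols alone, but this rule was set when earlier results from these arrays were already known.

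The cells were primary neurospheres, called small neurospheres in every sample title. These floating colonies, which precursor cells form in culture, came from the hippocampus of adult male C57BL/6J mice aged 8 to 12 weeks. All were grown in medium with the growth factors EGF and bFGF and collected on day 14, with 10 µM norepinephrine (N, 3 arrays) or 15 mM potassium chloride (K, 3 arrays). Neither group is an untreated control: each value below sets N against K, and which of the treatments moved a gene cannot be told apart. The labels call the replicates biological but do not say whether they came from separate mice, cultures or pools. If they did not, the p-values measure only a technical spread. Values are log2 RMA values (the robust multi-array average, background-corrected and normalized between arrays), and log2FC is the difference of their means, N minus K.

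The matrix is laid down by the cells that sit in it. Fibrillar collagens form cables, type IV collagen and laminin form the sheet-like basement membrane, and each laminin is a trimer of an alpha, a beta and a gamma chain. Integrins are alpha-beta pairs in the cell membrane that bind these ligands and couple them to the actin skeleton. In the adult brain, neural precursors touch laminin-rich basement membrane in their niche, and laminin-binding integrins with the beta1 subunit are known on such cells.

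No collagen, laminin or integrin gene passed the adjusted threshold between N and K neurospheres, and most of the differences were small. None of the 84 had an adjusted p under 0.05 (limma, Benjamini-Hochberg over all genes), where 0.155% of all genes did, and the lowest adjusted p among them was 0.212. None met the rule of the study's methods for a positive gene, a log2FC over 1 in size with an unadjusted P under 0.05, which 0.492% of all genes met. At an unadjusted P under 0.05 alone, 4 of 84 were lower with N, where 3.89% of all genes were, and 0 were higher with N, where 4.64% of all genes were. The 4 were Itga4 and Itgb1, which encode the alpha and the beta subunit of integrin alpha4 beta1, and Lama4 and Lamb1, which encode an alpha and a beta chain of laminin. The share of 4 in 84 is close to that of all genes, so the count says nothing particular about the family. RNA came from whole neurospheres, so fewer cells of a type and less RNA per cell cannot be told apart.

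The intervals show how small a difference the arrays could hold. The 95% interval of the log2FC lay within a 1.5-fold change in either direction for 72 of the 84 genes, against 70.8% of all genes tested. It did so for 43 of the 44 collagens, 7 of the 10 laminins and 22 of the 30 integrin genes. Many of these genes had low values: 7 of the 84 had a mean above 8 (8.33%), against 18.1% of all genes. Collagen means ran from 5.65 to 7.63, with 0 above 8. Clusters close to background can understate a difference, and how many of these lie close to it was not tested. The median log2FC was -0.05 over the 84 genes and -0.03 over all genes, and the median size of the log2FC was 0.10 and 0.12. Of the 84 genes, 50 had a negative log2FC (59.5%), beside 57.0% of all genes. The spread between replicates was also smaller, with a median pooled SD of 0.14 over the 84 genes and 0.18 over all genes.

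**Figure D1:**
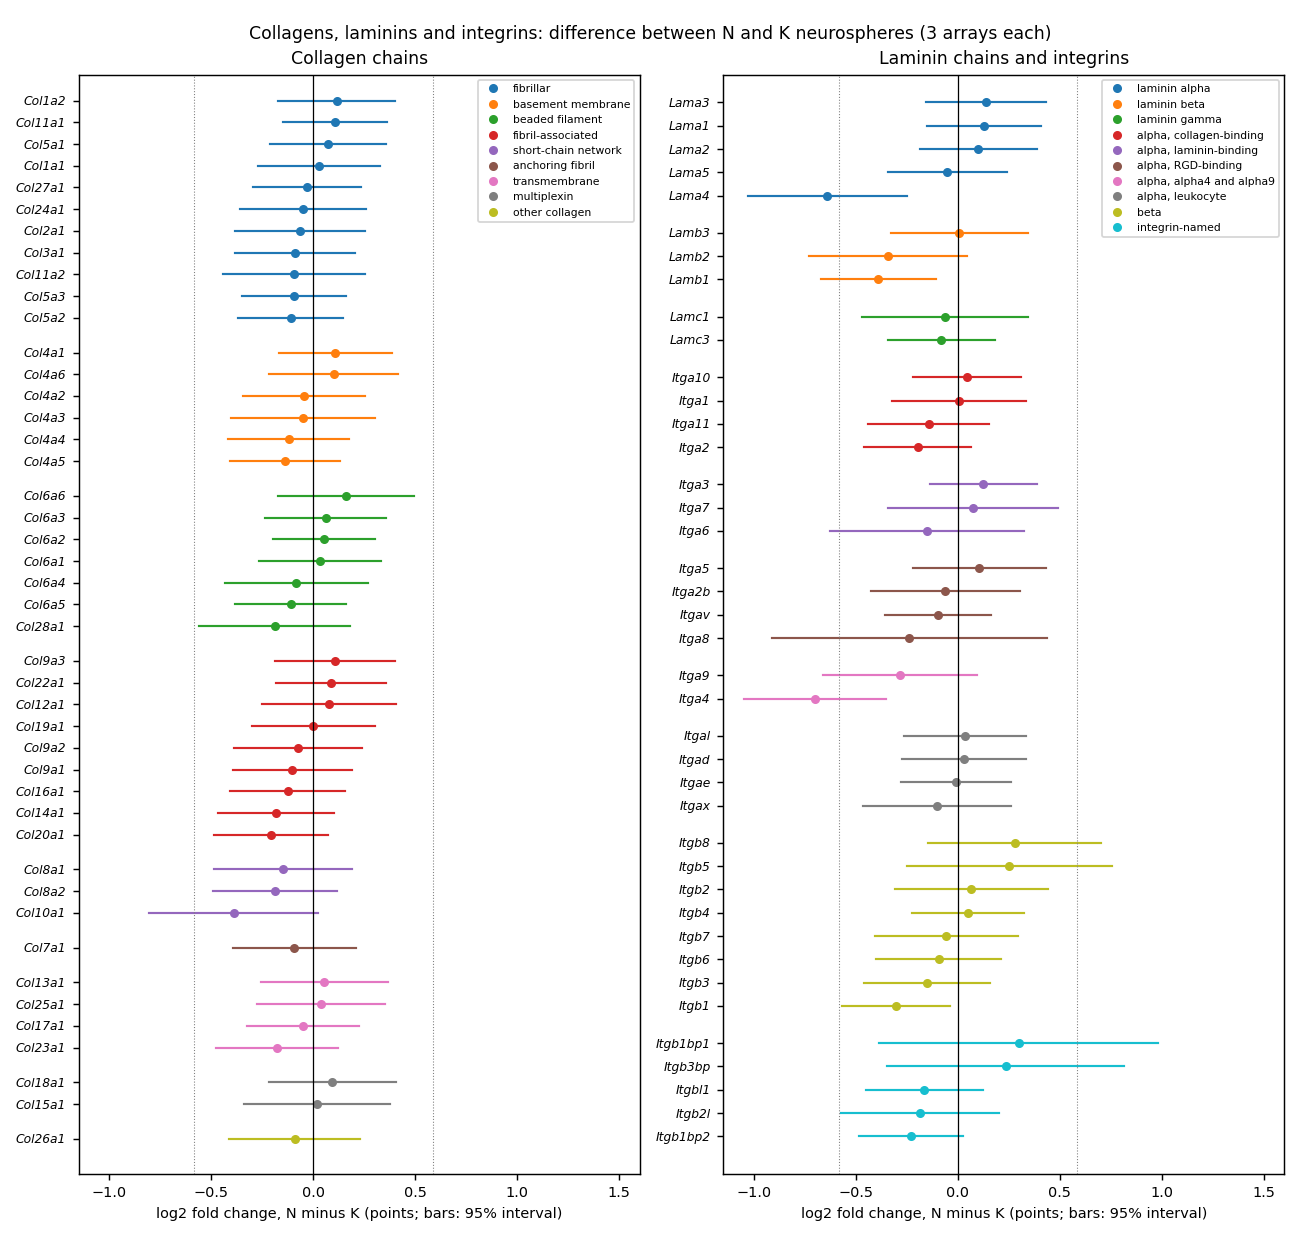
The log2FC (N minus K) of each collagen chain (left) and of each laminin chain and integrin gene (right) is shown as a point with its 95% interval from limma, 3 arrays per group, coloured by role. Dotted lines mark a 1.5-fold change. Itga4, Lama4, Lamb1 and Itgb1 are the genes whose interval does not reach 0.

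Integrin alpha4 pairs mainly with beta1 and binds fibronectin and the vascular adhesion molecule VCAM1. Itga4 (chr2:79255426-79333114, RefSeq GRCm38.p6) had values of 6.25, 6.45 and 6.20 on the N arrays, against 6.84, 7.28 and 6.88 on the K arrays. All N arrays lay below all K arrays. The log2FC was -0.70 (SE 0.15, 95% interval -1.05 to -0.35), with an adjusted p = 0.212 by limma, and the N level was 0.616 times the K level. This was the largest difference in size among the 84 genes.

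Integrin beta1 is the shared partner of most alpha subunits, among them those that bind laminin, collagen and fibronectin. Itgb1 (chr8:128685654-128733579) had 10.43, 10.41 and 10.32 on the N arrays, against 10.60, 10.72 and 10.76 on the K arrays. The groups did not overlap here either, but the gap was narrow. The log2FC was -0.30 (SE 0.12, 95% interval -0.57 to -0.04) with an adjusted p = 0.518 by limma. The N level was 0.81 times the K level. Leaving out any one of N replicates 1, 2 and 3 or K replicates 2 and 3 took the unadjusted P of Itgb1 past 0.05, up to 0.0888 without N replicate 3 (log2FC -0.27).

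The stretches just before the starts of Itga4 and Itgb1 are shown because these genes encode the paired subunits of 1 receptor. Each is the 250 bases upstream of the start on the plus strand, from RefSeq GRCm38.p6, at chr2:79255176-79255425 for Itga4 and chr8:128685404-128685653 for Itgb1. Capitals mark the matches to the motifs searched on both strands.
Itga4: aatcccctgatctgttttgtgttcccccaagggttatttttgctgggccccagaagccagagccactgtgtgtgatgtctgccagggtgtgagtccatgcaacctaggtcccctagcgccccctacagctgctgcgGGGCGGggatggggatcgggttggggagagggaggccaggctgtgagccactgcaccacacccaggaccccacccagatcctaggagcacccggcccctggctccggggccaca
Itgb1: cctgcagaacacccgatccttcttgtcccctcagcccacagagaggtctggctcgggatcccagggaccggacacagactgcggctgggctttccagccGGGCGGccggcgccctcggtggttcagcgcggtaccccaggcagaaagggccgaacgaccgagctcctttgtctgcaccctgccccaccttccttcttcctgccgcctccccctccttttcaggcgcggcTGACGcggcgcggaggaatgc
The Itga4 stretch held the GC box GGGCGG 114 bases before the start, and the Itgb1 stretch held it 151 bases before the start together with the CRE core TGACG 21 bases before it. TGACG is the inner part of TGACGTCA, the site of the cAMP-responsive factor CREB, and the full site was in neither. In the same 250 bases, GGGCGG was found in 32.9% of the 27025 promoters in the table and TGACG in 17.9%, so both matches are common. Of the 84 genes, 61 had a promoter in the table. The full site TGACGTCA was in 0 of these 61 (1.62% of all promoters), TGACG in 8 and GGGCGG in 29. The AP-1 motif TGANTCA was in 2 (6.87% of all), TATAAA in 5 (13.0%) and CCAAT in 16 (34.5%). A match is a run of letters and was not tested as a site.

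Among the laminin alpha chains, 1 of 5 passed the unadjusted threshold. Laminin alpha4 is best known from the basement membrane of blood vessels. Lama4 (chr10:38965515-39110188) had 6.66, 6.70 and 6.39 on the N arrays, against 7.24, 7.50 and 6.92 on the K arrays. The groups did not overlap, and the lowest K array was replicate 3. The log2FC was -0.64 (SE 0.17, 95% interval -1.03 to -0.25), with an adjusted p = 0.30 by limma, and the N level was 0.642 times the K level.

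The other alpha chains lay close to 0. Laminin alpha1 is an embryonic and pial chain, alpha2 is the main alpha chain of muscle and is also made around brain vessels, and alpha3 belongs to epithelia. Lama1 had 6.19, 6.42 and 6.31 on the N arrays, against 6.09, 6.17 and 6.28 on the K arrays (log2FC 0.13, SE 0.12). Lama2 had 6.26, 6.05 and 6.26 on the N arrays, against 5.97, 6.11 and 6.20 on the K arrays (log2FC 0.10, SE 0.13). Lama3 had 5.83, 5.75 and 5.80 on the N arrays, against 5.60, 5.52 and 5.85 on the K arrays (log2FC 0.14, SE 0.13). In each of these the groups overlapped. Lama5, the broad alpha chain of adult tissues, had a log2FC of -0.05 (SE 0.13). The median over the 5 alpha chains was 0.10, opposite in sign to Lama4.

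Laminin beta1 and beta2 are alternative beta chains of most brain laminins, and beta3 belongs to epithelial laminin. Lamb1 (chr12:31265146-31329644) had 7.37, 7.43 and 7.17 on the N arrays, against 7.75, 7.65 and 7.74 on the K arrays. No N array reached the lowest K array. The log2FC was -0.39 (SE 0.12, 95% interval -0.67 to -0.11) with an adjusted p = 0.400 by limma. Without N replicate 3 it was -0.31 and its unadjusted P was 0.0528.

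Lamb2 had 7.60, 7.07 and 7.26 on the N arrays, against 7.64, 7.46 and 7.85 on the K arrays. Here N replicate 1 lay above K replicate 2, so the groups overlapped. The log2FC was -0.34 (SE 0.17, 95% interval -0.73 to 0.05, adjusted p = 0.644 by limma), and its unadjusted P went under 0.05 when N replicate 1 (log2FC -0.49) or K replicate 2 (log2FC -0.44) was left out. Lamb3 had a log2FC of 0.01 (SE 0.15).

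The gamma1 chain is part of nearly every laminin outside epithelia. Lamc1 had 8.69, 8.35 and 8.92 on the N arrays, against 8.55, 8.64 and 8.96 on the K arrays, which overlapped (log2FC -0.06, SE 0.18, 95% interval -0.47 to 0.34). Lamc3 had a log2FC of -0.08 (SE 0.11). Over all 10 laminins the log2FC ran from -0.64 to 0.14 with a median of -0.06, and 6 were negative. The laminin median was -0.21 when only clusters with a mean above the median of all clusters were kept. That filter removed Lama1, Lama2, Lama3 and Lamb3, the laminins with a positive log2FC, and left the 6 negative ones.

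**Figure D2:**
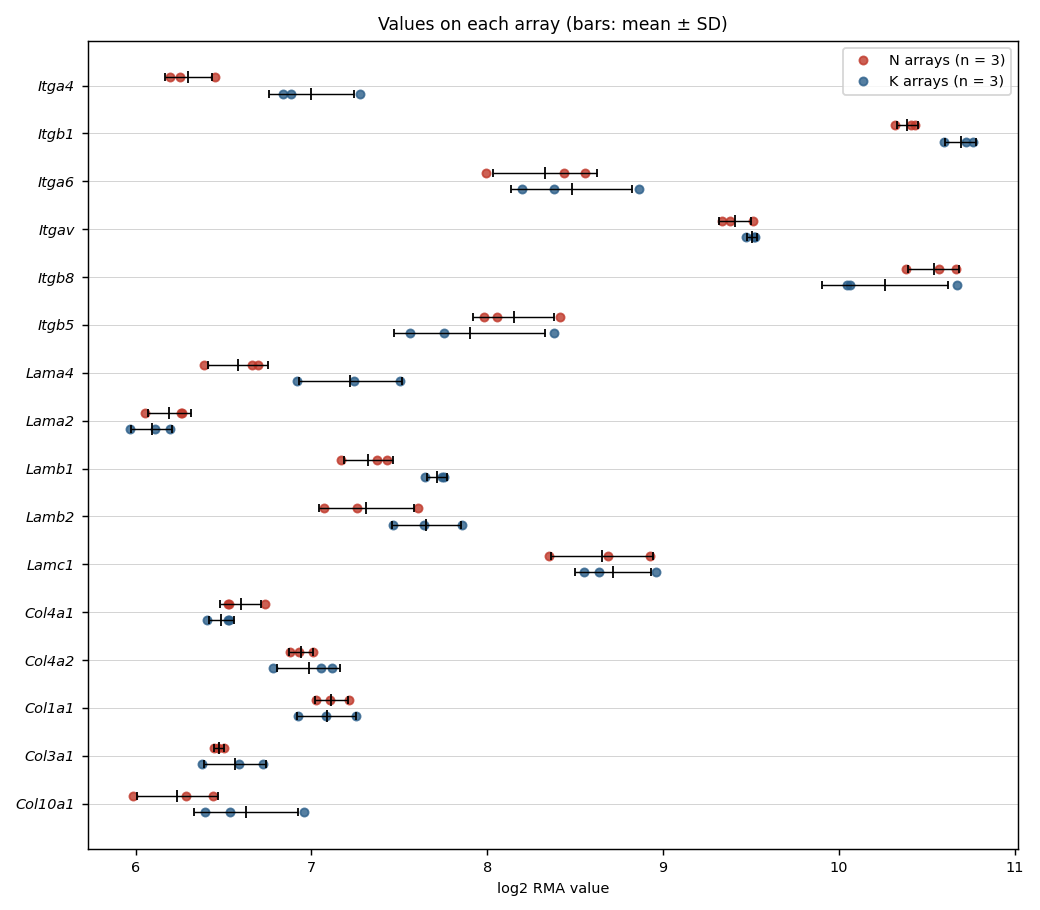
Log2 RMA values of 16 of the genes on each array, N arrays in red above K arrays in blue, with the mean and the SD of the 3 arrays as a bar. Itga4, Itgb1, Lama4 and Lamb1 have all N points left of all K points, and the other 12 genes overlap.

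The remaining integrin alpha subunits were grouped by ligand. Integrin alpha9 is the closest relative of alpha4 and binds tenascin-C and osteopontin. Itga9 had 6.34, 6.19 and 5.82 on the N arrays, against 6.26, 6.61 and 6.33 on the K arrays, so that N replicate 1 lay above K replicate 1. The log2FC was -0.28 (SE 0.17, 95% interval -0.66 to 0.10).

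Integrins alpha1, alpha2, alpha10 and alpha11 bind collagen. Itga2 had 6.62, 6.55 and 6.46 on the N arrays, against 6.78, 6.66 and 6.78 on the K arrays, all N below all K by a small step. The log2FC was -0.20 (SE 0.12, 95% interval -0.46 to 0.07, adjusted p = 0.705 by limma). Itga11 had a log2FC of -0.14 (SE 0.13), Itga10 of 0.05 (SE 0.12) and Itga1 of 0.00 (SE 0.14).

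Integrins alpha3, alpha6 and alpha7 bind laminin, and alpha6 with beta1 is a known surface marker of neural stem cells. Itga6 had 8.55, 8.44 and 7.99 on the N arrays, against 8.38, 8.86 and 8.20 on the K arrays. The groups overlapped and the spread was wide (log2FC -0.15, SE 0.21, 95% interval -0.63 to 0.32). Itga3 had a log2FC of 0.12 (SE 0.11) and Itga7 of 0.08 (SE 0.18).

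Integrin alphav and alpha5 bind the RGD motif of fibronectin and vitronectin, and alphav with beta8 activates latent TGF-beta in the brain. Itgav had 9.51, 9.33 and 9.38 on the N arrays, against 9.47, 9.52 and 9.52 on the K arrays, with N replicate 1 inside the K range (log2FC -0.10, SE 0.11, 95% interval -0.36 to 0.16). Itga5 had a log2FC of 0.11 (SE 0.14) and the platelet subunit Itga2b of -0.06 (SE 0.16). Itga8 had a log2FC of -0.24 with an SE of 0.30, one of the widest intervals among the 84 genes (-0.91 to 0.43). The leukocyte subunits Itgax, Itgal, Itgad and Itgae ran from -0.10 to 0.03, while the second Itgad cluster, which was not taken, had 0.23.

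Among the beta subunits, Itgb1 had the lowest log2FC and Itgb8 the highest. Itgb8 had 10.66, 10.57 and 10.38 on the N arrays, against 10.07, 10.67 and 10.05 on the K arrays. K replicates 1 and 3 lay below every N array, while K replicate 2 lay above them all. The log2FC was 0.28 (SE 0.19, 95% interval -0.15 to 0.70, adjusted p = 0.755 by limma), and without K replicate 2 it was 0.48 with an adjusted p = 0.204. Itgb5, a partner of alphav, had a log2FC of 0.25 (SE 0.22), and the other 5 beta subunits ran from -0.15 for Itgb3 to 0.07 for Itgb2.

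The 5 integrin-named genes were kept because the rule takes them, and Itgbl1 and Itgb2l are related in sequence to the beta subunits. Itgb1bp2 encodes melusin, a muscle protein that binds the beta1 tail. It had 5.61, 5.51 and 5.59 on the N arrays, against 5.78, 5.86 and 5.76 on the K arrays, which did not overlap (log2FC -0.23, SE 0.11, 95% interval -0.49 to 0.03, adjusted p = 0.637 by limma). Itgb1bp1 (log2FC 0.30, SE 0.30) and Itgb3bp (log2FC 0.23, SE 0.25) had wide intervals, and Itgbl1 and Itgb2l had a log2FC of -0.17 and -0.18. Over all 30 integrin genes the log2FC ran from -0.70 to 0.30 with a median of -0.06, and 17 were negative.

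**Figure D3:**
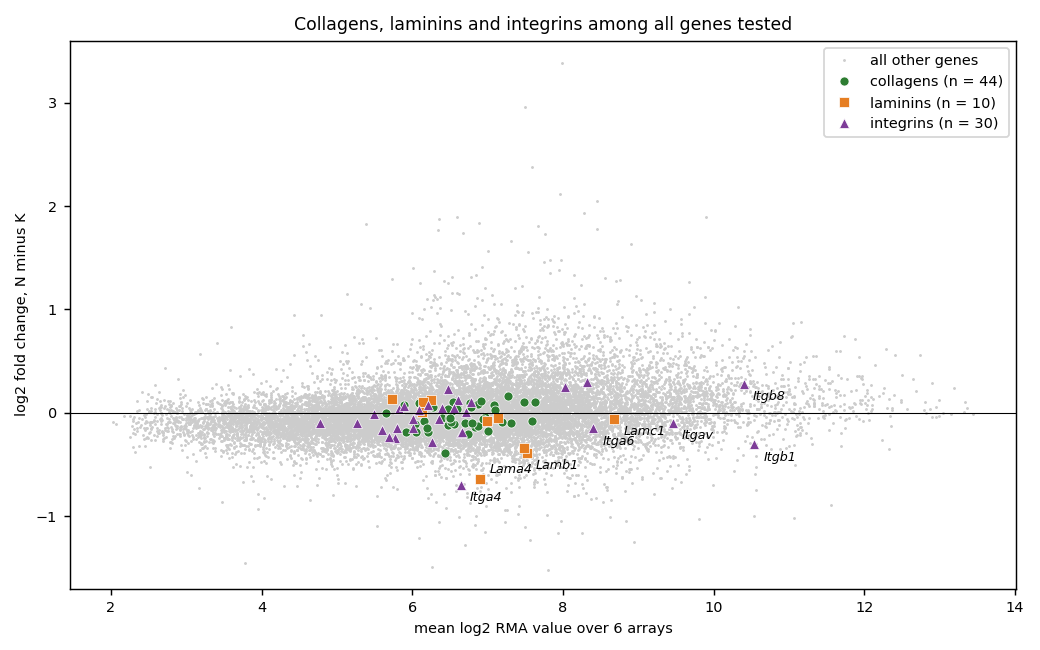
The log2FC (N minus K) of every gene tested is plotted against its mean log2 RMA value over the 6 arrays, with collagens, laminins and integrins in colour over all other genes in grey. The coloured points lie between -0.70 and 0.30, inside the cloud of all genes.

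None of the 44 collagens had an unadjusted P under 0.05 in either direction. Their log2FC ran from -0.39 to 0.16 with a median of -0.05, and 27 of 44 were negative. The collagen with the largest difference was Col10a1, a short-chain collagen known from growth plate cartilage. It had 6.28, 6.44 and 5.99 on the N arrays, against 6.96, 6.39 and 6.54 on the K arrays, so that N replicate 2 lay above K replicate 2. The log2FC was -0.39 (SE 0.18, 95% interval -0.81 to 0.03, adjusted p = 0.620 by limma), and it was the collagen whose interval reached past 1.5-fold. Its unadjusted P was under 0.05 without N replicate 2 (log2FC -0.49) and without K replicate 2 (log2FC -0.51).

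The related short-chain network collagen Col8a2, found in vessel walls and the cornea, had 5.95, 5.90 and 6.03 on the N arrays, against 6.15, 5.96 and 6.34 on the K arrays (log2FC -0.19, SE 0.13). The groups overlapped only between N replicate 3 and K replicate 2. Col8a1 had a log2FC of -0.15 (SE 0.15), so all 3 of this class were negative, with a median of -0.19.

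Basement membrane collagen is a trimer drawn from the 6 type IV chains, in most tissues alpha1 and alpha2. Col4a1 had 6.52, 6.73 and 6.53 on the N arrays, against 6.53, 6.40 and 6.53 on the K arrays (log2FC 0.11, SE 0.12). Col4a2 had 6.88, 7.01 and 6.93 on the N arrays, against 7.12, 6.78 and 7.06 on the K arrays (log2FC -0.05, SE 0.13). Both overlapped between the groups. The annotated spans of this pair overlap head to head on opposite strands of chromosome 8 (11198423 to 11312889 for Col4a1 and 11312805 to 11449287 for Col4a2). By the promoter annotation rather than these spans, the start of Col4a5 lies 1343 bases from that of Col4a6 on the opposite strand of chromosome X. Col4a5 had 6.67, 6.88 and 6.73 on the N arrays, against 6.89, 6.84 and 6.97 on the K arrays, where only N replicate 2 entered the K range (log2FC -0.14, SE 0.12). Its neighbour Col4a6 had a log2FC of 0.10 (SE 0.14), and Col4a3 and Col4a4 had -0.05 and -0.12.

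Fibrillar collagens are the cable-forming chains of skin, bone, cartilage and vessel walls. Col1a1 had 7.10, 7.21 and 7.03 on the N arrays, against 7.08, 6.92 and 7.25 on the K arrays (log2FC 0.03, SE 0.13). Col3a1 had 6.50, 6.44 and 6.47 on the N arrays, against 6.59, 6.38 and 6.73 on the K arrays (log2FC -0.09, SE 0.13). In both the N arrays lay within the K range. On the cluster taken for each gene, Col11a1, a minor chain that nucleates cartilage fibrils, was the only 1 of the 84 with all N arrays above all K arrays. It had 7.55, 7.56 and 7.49 with N, against 7.44, 7.48 and 7.37 with K. Its log2FC was 0.11 (SE 0.11, 95% interval -0.15 to 0.36, adjusted p = 0.847 by limma). The second Itgad cluster, not taken because its mean was lower, also had all N arrays (6.26, 6.14 and 6.17) above all K arrays (6.07, 5.72 and 6.10). The 11 fibrillar chains ran from -0.11 for Col5a2 to 0.12 for Col1a2.

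Fibril-associated collagens decorate the surface of those cables. Col20a1 had 6.58, 6.68 and 6.64 on the N arrays, against 6.83, 6.71 and 6.99 on the K arrays, with no overlap (log2FC -0.21, SE 0.12, 95% interval -0.49 to 0.07, adjusted p = 0.710 by limma). Col14a1 had 6.14, 6.10 and 6.12 on the N arrays, against 6.43, 6.13 and 6.36 on the K arrays, where N replicate 1 just passed K replicate 2 (log2FC -0.18, SE 0.12). The type IX chains belong to cartilage and eye. Col9a3 had 7.80, 7.76 and 7.50 on the N arrays, against 7.62, 7.48 and 7.64 on the K arrays (log2FC 0.11, SE 0.13). Col9a2 had 7.65, 7.60 and 7.41 on the N arrays, against 7.66, 7.43 and 7.79 on the K arrays (log2FC -0.07, SE 0.14). The type IX groups overlapped, as did those of Col9a1 (log2FC -0.10, SE 0.13).

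Transmembrane collagens are anchored in the cell surface. Col23a1 had 6.84, 6.84 and 7.08 on the N arrays, against 7.14, 6.96 and 7.20 on the K arrays, with N replicate 3 above K replicate 2 (log2FC -0.18, SE 0.13). The other 3 of this class, Col13a1, Col17a1 and Col25a1, ran from -0.05 to 0.05. The 7 beaded-filament chains had a median of 0.03 and ran from -0.19 for Col28a1 to 0.16 for Col6a6. The second cluster of Col6a6, which was not taken, had a difference of -0.04. The multiplexins Col15a1 and Col18a1, whose tail gives endostatin in the case of Col18a1, had a log2FC of 0.02 and 0.09. Col7a1, the anchoring fibril of skin, and Col26a1 both had -0.09.

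Counted by whether the groups overlapped, 9 of the 84 genes had all N arrays below all K arrays, against 7.55% of all genes, and 1 had all N above all K, against 5.78%. The 9 were Itga4, Itgb1, Itga2, Itgb1bp2, Lama4, Lamb1, Col20a1, Col5a2 and Col5a3. Leaving out K replicate 2 moved this count the most. That array was the lowest of the K arrays in 38 of the 44 collagens (86.4%), against 46.0% of all genes, 5 of 10 laminins and 9 of 30 integrin genes. After centring every array at its median it was the lowest in 28 of 44 collagens, against 34.3% of all genes. The median collagen deviated from its own mean over the 6 arrays by -0.01, 0.02 and -0.07 on N replicates 1, 2 and 3, against 0.08, -0.12 and 0.10 on K replicates 1, 2 and 3. Without K replicate 2, all N arrays lay below both remaining K arrays in 32 of the 84 genes, 20 of them collagens, against 21.7% of all genes, and above them in 3, against 12.5% of all genes. With centred arrays these counts were 22 of 84 below, 11 of them collagens, against 14.7% of all genes, and 9 above, against 16.5% of all genes. The mean correlation of K replicate 2 over clusters was 0.969 with the N arrays and 0.954 with its own group. K replicate 1 was also slightly closer to the N arrays (0.955) than to its own group (0.954). The values of K replicate 3 were lower on both sides, 0.943 and 0.948. The collagen median log2FC was -0.13 without K replicate 2, and -0.02, -0.01 and -0.01 without K replicate 1, K replicate 3 and N replicate 3. The laminin median was 0.04 without K replicate 3 and the integrin median 0.00 without K replicate 2, so neither family median kept its sign. The part of this array in the collagen values was not tested.

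**Figure D4:**
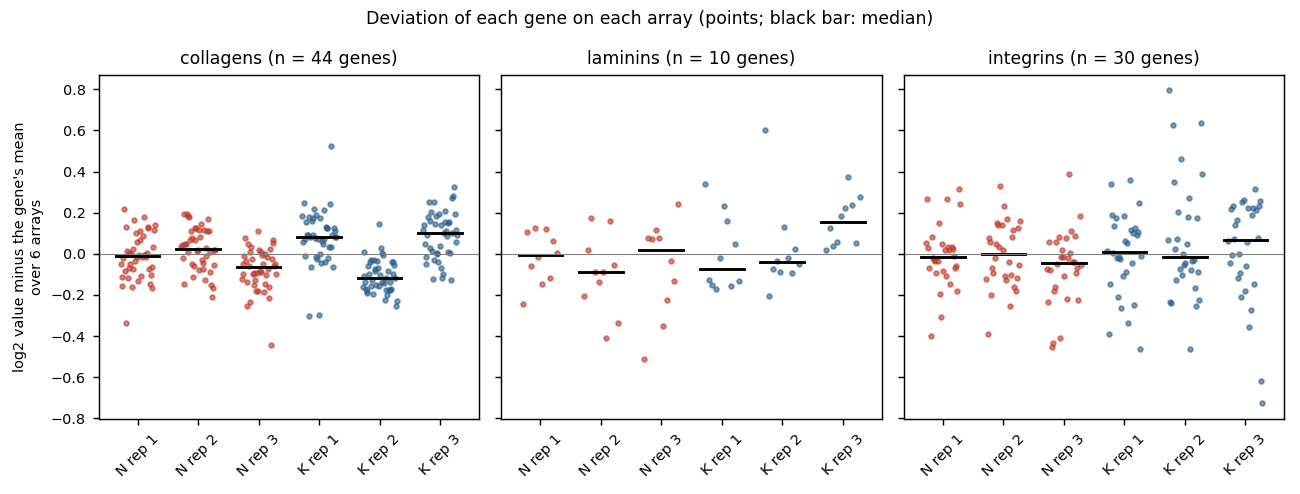
Each point is a gene's log2 RMA value on 1 array minus its own mean over the 6 arrays, for collagens, laminins and integrins, N arrays in red and K arrays in blue, with the median as a black bar. Collagens sit together on each array and lowest on K replicate 2 (median -0.12), against 0.08 and 0.10 on K replicates 1 and 3.

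The proteins that work with these chains were looked at from lists of companion genes, each described by its counts at an unadjusted P under 0.05, to be read beside the 3.89% of all genes that were lower and the 4.64% that were higher with N at that P. Of 26 measured genes for making and crosslinking collagen, 4 were lower with N and 0 higher at an unadjusted P under 0.05, with a median log2FC of -0.09 and 0 at an adjusted p under 0.05. Serpinh1, the collagen chaperone of the endoplasmic reticulum, had 7.95, 7.89 and 8.08 on the N arrays, against 8.54, 8.32 and 8.48 on the K arrays (log2FC -0.47, SE 0.12, adjusted p = 0.294 by limma). Plod2, a lysyl hydroxylase for crosslinks, had 7.81, 7.91 and 7.63 on the N arrays, against 8.10, 8.16 and 8.06 on the K arrays (log2FC -0.33, SE 0.12, adjusted p = 0.513 by limma). Neither pair of groups overlapped. Pcolce, an enhancer of procollagen cleavage, had a log2FC of -0.49 (SE 0.16), and Colgalt2, a collagen galactosyltransferase, had -0.60 (SE 0.24).

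Of 24 basement membrane and matrix partners, 2 were lower and 6 higher with N at an unadjusted P under 0.05, with a median log2FC of 0.00 and 0 at an adjusted p under 0.05. Tnr, which encodes tenascin-R of the brain matrix, had 6.66, 7.15 and 6.94 on the N arrays, against 7.87, 7.89 and 7.92 on the K arrays (log2FC -0.98, SE 0.15, adjusted p = 0.0600 by limma). Fbln2, which encodes fibulin-2, a basement membrane and vessel wall protein, had 8.36, 8.33 and 8.68 on the N arrays, against 7.44, 7.64 and 7.72 on the K arrays (log2FC 0.86, SE 0.14, adjusted p = 0.0885 by limma). Both differences were wider than those of the 84 genes and ran in opposite directions. Over the 24 partners the log2FC ran from -0.98 to 1.15. The methods' rule was met by 1 of them, neither Tnr nor Fbln2, where 0.492% of all genes met it. The basement membrane protein Frem1 and the integrin ligand nephronectin, from Npnt, had a log2FC of 0.50 (SE 0.14) and 0.43 (SE 0.13).

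Of 29 genes of the complex that ties integrins to actin, 3 were lower and 1 higher with N at an unadjusted P under 0.05, with a median log2FC of -0.08 and 0 at an adjusted p under 0.05. Lims1, which encodes the adaptor PINCH, had 8.08, 8.17 and 7.74 on the N arrays, against 8.42, 8.46 and 8.54 on the K arrays (log2FC -0.47, SE 0.14, adjusted p = 0.382 by limma). The tensins Tns3 (log2FC -0.51, SE 0.14) and Tns2 (log2FC -0.46, SE 0.14), which link beta tails to actin, also had all N arrays below all K arrays. Apbb1ip, a talin recruiter best known in blood cells, had 6.58, 6.71 and 6.94 on the N arrays, against 6.23, 6.30 and 6.30 on the K arrays (log2FC 0.46, SE 0.13, adjusted p = 0.340 by limma).

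Other cell types that make matrix were followed by their markers. Of 20 markers of pericytes, fibroblasts and meninges, 1 was lower and 2 were higher with N at an unadjusted P under 0.05, and their mean value per array was 6.15 to 6.25 on the N arrays and 6.15 to 6.21 on the K arrays. Foxc1, a transcription factor of meninges and pericytes, had 5.44, 5.33 and 5.51 on the N arrays, against 6.57, 5.84 and 6.10 on the K arrays (log2FC -0.74, SE 0.18, adjusted p = 0.267 by limma). The contractile gene Tagln (log2FC 0.46, SE 0.17) and the pericyte channel gene Kcnj8 (log2FC 0.37, SE 0.14) ran the other way. Of 13 endothelial markers, 0 passed that P in either direction, with mean values of 5.69 to 5.78 on the N arrays and 5.69 to 5.89 on the K arrays. The same was true of 13 microglial markers, with 5.81 to 5.95 on the N arrays and 5.80 to 6.05 on the K arrays.

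Astrocyte markers moved with the comparison. Of 14, 8 were higher and 0 lower with N at an unadjusted P under 0.05, and the median log2FC was 0.39. Their mean value per array was 9.35 to 9.66 on the N arrays and 8.94 to 8.99 on the K arrays. Gfap had 7.90, 7.98 and 8.53 on the N arrays, against 6.18, 6.47 and 6.79 on the K arrays (log2FC 1.66, SE 0.21, adjusted p = 0.0358 by limma). The 9 measured precursor markers, which check the label of the cells, had mean values of 8.81 to 8.94 on the N arrays and 8.76 to 8.86 on the K arrays. Of these, 1 was lower and 2 were higher with N at an unadjusted P under 0.05. Nes was lower (log2FC -0.53, SE 0.16), while Vim (log2FC 0.44, SE 0.11) and Prom1 (log2FC 0.40, SE 0.11) were higher with N. Whether a changed share of cell types took part in the values of Itga4, Itgb1, Lama4 and Lamb1 was not tested.

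**Figure D5:**
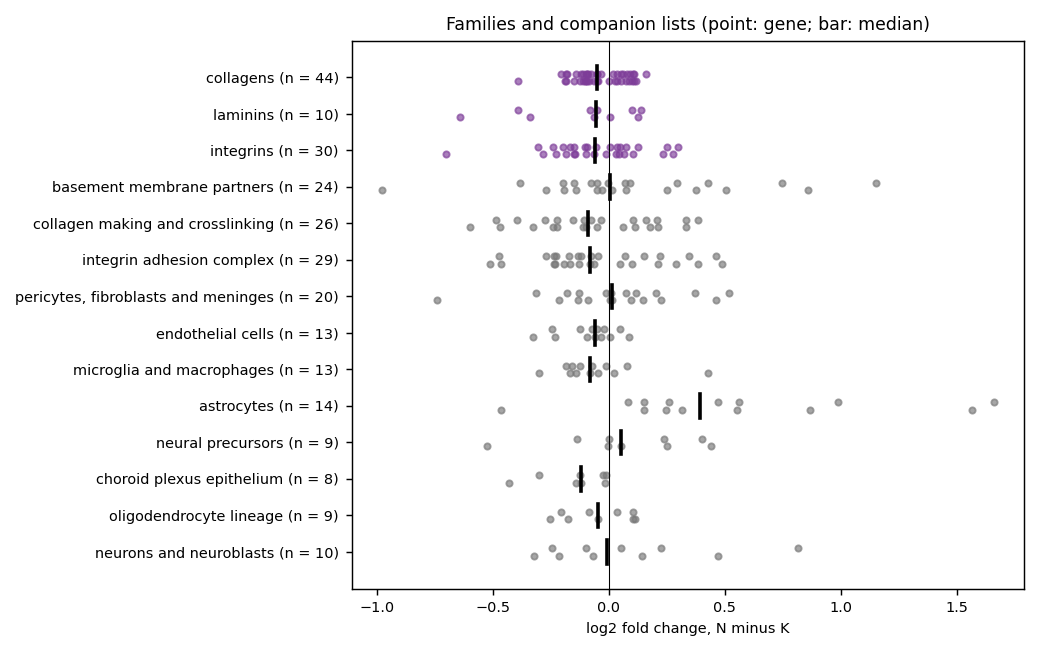
The log2FC (N minus K) of each gene is shown for the 3 families in purple and for the companion lists in grey, with the median of each as a black bar. Collagens span -0.39 to 0.16, and the astrocyte list has the highest median at 0.39.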

How the data were processed

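Affymetrix mouse gene arrays of 3 N and 3 K samples were analysed, grouped by their labels. The authors summarised the scans with RMA in Partek Genomics Suite (versions not given in the sources used here) and deposited log2 values, 1 per transcript cluster, which were used as they stand. Of 34760 clusters, 21640 carried 1 symbol, and the cluster with the highest mean was taken for each of 19937 genes. Of the 84 genes, 3 (Col6a5, Col6a6 and Itgad) had more than 1 cluster. N minus K was fitted with limma 3.58.1 in R 4.3.3 (lmFit, eBayes, no further terms, 4.59 prior degrees of freedom), two-sided, with Benjamini-Hochberg adjustment over all genes. With 3 arrays per group, an exact permutation test of 1 gene cannot go below 0.1, and the number of arrays limits the precision.

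Values on every array are given by a rule: genes at an adjusted p under 0.05 or with a log2FC over 1 in size, the 6 with the smallest P and the 3 with the highest mean in each family, and Col1a1, Col3a1, Col4a1, Col4a2, Lama2, Lamb1, Lamc1, Itga6, Itgb1 and Itgav. Up to 4 genes with the smallest P are named from a companion list. Other list genes are counted only. The genes, lists and tests were chosen with earlier results of these data known. All 84 genes were matched to RefSeq by gene ID. The fit was tested on simulated data. Alternatives were a replicate block, no moderation, eBayes with trend and robust, a filter on dim clusters, quantile normalization, centred arrays, the mean of all clusters, genes with 1 cluster and each array left out in turn. Companion lists of choroid plexus epithelium (8 genes), oligodendrocyte lineage (9) and neurons (10) had a median log2FC of -0.12, -0.05 and -0.01. Python 3.11.15 and matplotlib 3.10.9 made the figures.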

Additional observations from a re-analysis of the deposited data

How the results depend on the processing

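The log2FC of Itga4, Itgb1, Lama4 and Lamb1 was negative under all 14 alternatives, with ranges of -0.78 to -0.56, -0.38 to -0.27, -0.79 to -0.50 and -0.44 to -0.31. The replicate block, no moderation and eBayes with trend and robust leave a log2FC unchanged by construction. So do the dim filter, the mean of all clusters and the 1-cluster setting for these genes, which have 1 cluster each. The other alternatives reuse arrays on which these genes were picked by their P, so the shared sign is no independent support. The unadjusted P was under 0.05 in 14, 8, 14 and 13 of them, and the adjusted p by limma was never under 0.138. Under every alternative 0 of the 84 genes met the methods' rule or had an adjusted p under 0.05. At an unadjusted P under 0.05, 6 were lower with N with no moderation, beside 4 as reported. Of all 19937 genes, 799 were lower with no moderation, beside 776 as reported. The labels do not say whether equal replicate numbers mark a shared preparation. Same-numbered arrays deviated together with r = 0.043, 0.043 and 0.121 over genes. Every array correlated best with its own number except N replicate 1 and K replicate 2, which correlated best with each other. With 3 arrays per group, such correlations cannot settle whether the samples were paired. The replicate block left 3 of the 84 lower with N, without Itgb1, where 756 of all genes were lower at that P. It called 41 of all genes at an adjusted p under 0.05, beside 31 as reported. That count was 1 with no moderation, 3 with centred arrays and 12 with quantile normalization, so the share of all genes called moves with the setting. All N arrays lay above all K arrays in 3 of the 84 genes with quantile normalization and in 3 with centred arrays, beside 1 as reported. The share of all genes at these settings is not given here, so this shift cannot be read as particular to the family. The laminin median was -0.21 with dim clusters left out, which removed every laminin with a positive log2FC. With the same filter the integrin median was 0.02, beside -0.06 as reported, and the collagen median was -0.05 in both. Leaving out 1 array at a time gave 9 to 32 genes with all N below all K, 3 to 8 with all N above all K, 2 to 5 lower and 0 to 2 higher with N at an unadjusted P under 0.05. Without N replicate 1, 4 of the 84 were lower and 0 higher at that P, where 557 and 694 of all 19937 genes were. All N lay below all K in 32 genes without K replicate 2, 15 without N replicate 1 and 15 without N replicate 2. Of all genes, 21.7% lay below and 12.5% above without K replicate 2. All N lay above all K in 3 genes without K replicate 2, 3 without N replicate 2, 4 without N replicate 1, 5 without N replicate 3, and 7 and 8 on leaving out K replicates 1 and 3, where fewer arrays overlap less by construction. Without N replicate 3, 2 genes were lower with N at an unadjusted P under 0.05. No further share of all genes is given for these counts with an array left out, so they say nothing particular about the family. Over all genes, 0 had an adjusted p under 0.05 after removing either of N replicates 1 and 2 or K replicate 1. A cluster close to background can understate a difference, and no background value was used here, so an interval within 1.5-fold holds for the RMA values.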
